A study of Mus musculus with 20 samples.

Results

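In fasted mouse liver, 2167 of 65776 consensus intervals of histone H3 lysine 27 acetylation (H3K27ac) were called in both wild-type livers and in none of the livers lacking Cpt2, Ppara or both. These WT-only regions make up 3.29% of all H3K27ac intervals and 7.96% of the 27231 intervals called in both wild-type libraries. An interval was taken when a peak of each wild-type library overlapped it by at least 1 base and no peak of the 6 other libraries did. The regions were chosen by their H3K27ac peak calls, so all H3K27ac values given for them are a description. A region not called in a library had no peak above the caller's threshold there, which is not the same as no acetylation.

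The mice were male, 9 weeks old and C57BL/6, and all had been fasted for 24 hours. The groups were wild type (WT), a liver knockout of Cpt2 (Cpt2 L-/-, here Cpt2 KO), a knockout of Ppara (Ppara -/-, here Ppara KO) and the double knockout (Cpt2 L-/- with a whole-body loss of Ppara, here DKO). Chromatin immunoprecipitation with sequencing (ChIP-seq) of H3K27ac and of H3K4me1 gave 2 libraries per genotype, and H3K9ac gave 1 WT and 1 Cpt2 KO library. What drives the liver deletion of Cpt2 is not given in the sources used here. The number in the peak names differed between replicates and was the same for the H3K27ac and the H3K4me1 library of a genotype and replicate.

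H3K27ac is laid down by the acetyltransferases p300 and CBP at active enhancers and promoters, while H3K4me1 marks enhancers whether they are active or not. H3K9ac is found mostly at active promoters. Cpt2 encodes the carnitine palmitoyltransferase of the inner mitochondrial membrane that long-chain fatty acids need for oxidation, and Ppara encodes the nuclear receptor that drives fatty acid oxidation and ketone body synthesis during a fast.

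Few of the WT-only regions reached a transcription start. Of the 2167 regions, 61 (2.81%) overlapped a RefSeq promoter window of 250 bases before to 50 bases after a start (GRCm38.p6, the assembly that mm10 names), against 39.8% of the intervals called in all 8 libraries. Those shared intervals were also wider (median 1981 against 513 bases), and the part of width in this contrast was not tested. The WT-only regions covered 43 windows over at least 150 bases. The 4 windows below are examples from protein-coding genes, chosen after their values were seen: both with a match to the Ppara direct repeat (Steap3 and Dpf3), 1 of the 3 with an E-box (Fgfrl1), and 1 wholly inside a region with no match (Slc13a2). Each reads 5′ to 3′ in the direction of the gene, and capitals mark matches to the direct repeat that Ppara binds with its partner Rxra (AGGTCA, any 1 base, then AGGTCA again, with at most 2 mismatches), TGTTTAC (the forkhead motif) or CACGTG (the E-box, which reads the same on both strands), on either strand.
Steap3 (chr1:120270221-120270520, minus strand): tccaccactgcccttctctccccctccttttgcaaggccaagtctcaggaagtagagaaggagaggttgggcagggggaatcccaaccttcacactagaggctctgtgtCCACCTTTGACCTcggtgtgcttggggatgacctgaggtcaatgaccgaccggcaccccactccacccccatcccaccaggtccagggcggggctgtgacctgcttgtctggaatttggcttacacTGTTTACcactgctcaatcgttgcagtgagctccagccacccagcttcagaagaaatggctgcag
Dpf3 (chr12:83487687-83487986, minus strand): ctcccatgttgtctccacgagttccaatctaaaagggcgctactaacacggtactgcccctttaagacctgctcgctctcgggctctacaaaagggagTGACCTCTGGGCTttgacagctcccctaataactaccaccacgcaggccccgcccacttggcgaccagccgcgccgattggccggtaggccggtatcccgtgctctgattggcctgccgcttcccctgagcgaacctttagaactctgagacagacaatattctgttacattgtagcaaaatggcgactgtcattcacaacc
Fgfrl1 (chr5:108693979-108694278, plus strand): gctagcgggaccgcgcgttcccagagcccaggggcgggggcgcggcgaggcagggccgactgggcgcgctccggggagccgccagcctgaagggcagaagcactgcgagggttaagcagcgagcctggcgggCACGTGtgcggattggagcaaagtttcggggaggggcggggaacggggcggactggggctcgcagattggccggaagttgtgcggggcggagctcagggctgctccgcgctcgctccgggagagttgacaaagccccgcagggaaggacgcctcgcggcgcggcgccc
Slc13a2 (chr11:78422185-78422484, minus strand): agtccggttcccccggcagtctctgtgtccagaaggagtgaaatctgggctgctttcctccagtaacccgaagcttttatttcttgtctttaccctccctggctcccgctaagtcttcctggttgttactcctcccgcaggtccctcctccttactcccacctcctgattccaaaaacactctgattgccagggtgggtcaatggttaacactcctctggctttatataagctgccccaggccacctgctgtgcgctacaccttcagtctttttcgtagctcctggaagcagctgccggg

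Steap3, a metalloreductase of iron uptake, had both a match to the direct repeat and the forkhead motif in its window, which held 5 CpG dinucleotides. Its region gave H3K27ac folds over background of 4.67 and 5.50 in the WT livers and had H3K4me1 peaks in all 8 libraries, with folds from 3.75 to 8.17. Dpf3, a subunit of BAF chromatin remodelling complexes, had a match to the direct repeat 152 bases before its start, in a window of which its region covered 164 bases on the side of the start. The match lies outside the region. The Dpf3 region had folds of 4.69 and 6.14 and no H3K4me1 peak in any library. At Fgfrl1, an FGF receptor relative without a kinase domain, the window held 37 CpG dinucleotides and 1 E-box, and the folds were 8.69 and 16.7. H3K4me1 at Fgfrl1 was called in both WT livers (9.28 and 9.55) and in Cpt2 KO replicate 2 (8.83), and in no other library. Slc13a2, a sodium-coupled transporter of citrate and succinate, had folds of 4.89 and 5.67, with H3K4me1 called in all 8 libraries.

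The motifs were about as frequent in the windows covered over at least 150 bases as in all 32851 windows, and with 43 windows each share rests on a few. The direct repeat was found in 2 of 43 windows (4.65%) against 3.86% of all windows, the forkhead motif in 2 (4.65%) against 3.65%, and the E-box in 3 (6.98%) against 7.15%. The E-box windows were those of Fgfrl1, Bptf and Rhobtb3. The glucocorticoid receptor motif (AGAACA, any 3 bases, then TGTTC, with at most 2 mismatches) was found in 5 (11.6%) against 6.77%, and these 5 windows were all of genes that do not code for protein. TTGCGCAA and TGACGTCA were found in none, against 0.183% and 1.79% of all windows. A match describes these letters only.

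The acetylation of the WT-only regions was moderate in both WT livers. In WT replicate 1 their fold over background ran from 2.91 to 13.75 with a median of 5.67, and in WT replicate 2 from 2.90 to 25.4 with a median of 5.83. The medians of all H3K27ac peaks of these libraries were 6.69 and 7, and 32.3% and 32.1% of all peaks lay at or below the regions' medians. The tags piled up at a region's summit, recovered from the fold and the p-value, numbered 15 to 61 (median 27) in replicate 1 and 16 to 114 (median 27) in replicate 2. Peaks with −log10 q below 10 made up 28.4% and 24.4% of the regions' peaks, against 16.1% and 15.3% of all peaks. The regions thus lay in the lower part of each library's range, nearer to the calling threshold than its peaks at large, as the plot of fold enrichment shows.

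**Figure D1:**
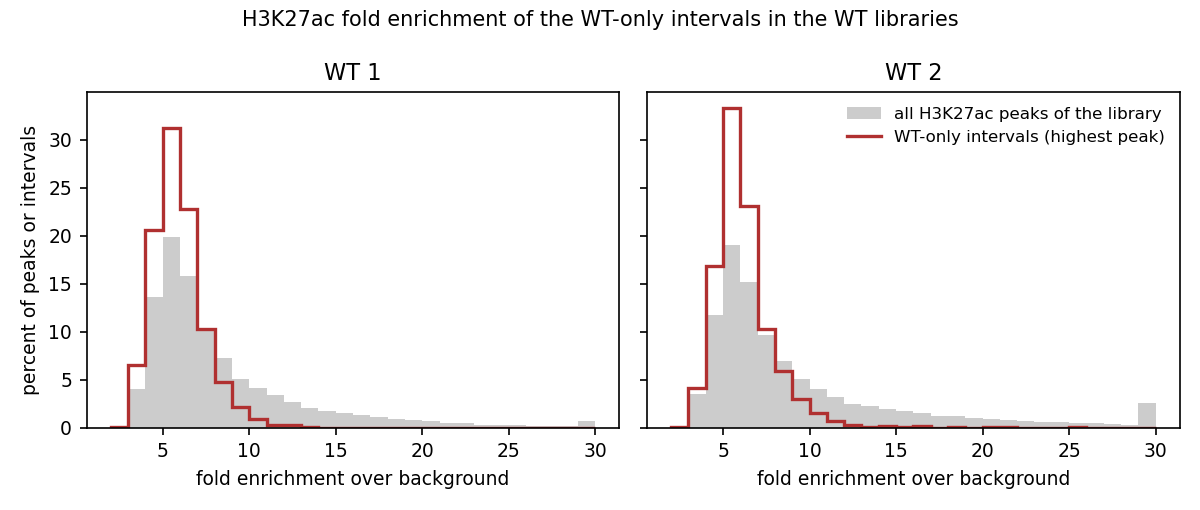
Percent of WT-only intervals (red line, highest peak at each interval) and of all H3K27ac peaks (grey) by fold enrichment over background, in steps of 1, for each WT library; the last step holds all higher values. The red line is highest between 5 and 6 in both libraries and falls off earlier than the grey.

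At the edge of the rule, the 3 regions with the lowest −log10 q in a WT library were near Plg (plasminogen), Gorasp2 and Rnf43. Plg had folds of 6.45 and 2.90, Gorasp2 6.50 and 3.50, and Rnf43 4.87 and 3.50. Just outside it, 3 intervals were called in both WT livers and by 1 weak peak elsewhere: near Dclk3 in Ppara KO replicate 2 (fold 2.90), near Ubxn11 in DKO replicate 2 (3.8) and near Rab7 in Ppara KO replicate 1 (3.8). Of all intervals called in both WT livers, 1294 were called in exactly 1 other library and 18281 in all 6 others. Among those called in 1 other, that library was Ppara KO replicate 1 for 522, Ppara KO replicate 2 for 332, Cpt2 KO replicate 2 for 253, Cpt2 KO replicate 1 for 79, DKO replicate 2 for 68 and DKO replicate 1 for 40. The Ppara KO livers thus held the extra peak most often and the DKO livers least often. The smallest H3K27ac peak was 205 and 210 bases in the Ppara KO libraries, near the 206 and 198 of WT. It was 221 and 220 in Cpt2 KO and 217 and 223 in DKO, where replicate 1, with 217, had the fewest. The part of this width in the calls was not tested.

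The 15 regions with the highest lower fold of the WT livers lay at genes of varied roles. Of these, 5 were narrow and had no H3K4me1 peak in any library. A region of 467 bases, 51174 bases from Gpc5, a glypican, had folds of 13.0 and 18.4. At Samd1, which binds CpG islands, regions of 289 and 330 bases had folds of 12.5 and 21.1, and of 10.4 and 14.6. Regions of under 300 bases at the corepressor gene Bcorl1 (11.9 and 16.7) and at Dnmt3a, a DNA methyltransferase (10.7 and 18.8), were of the same kind. In each of these 5 regions WT replicate 2 was higher than replicate 1.

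The other 10 carried H3K4me1 peaks, and most were wider. Pakap (11.6 and 14.3), Tcf7l1, a transcription factor of the Wnt pathway (12.2 and 11.2), Shh (10.7 and 16.7), Gas7 (10.3 and 11.8), Slc6a6, the taurine transporter (10.3 and 11.8), and Rgs12 (10.2 and 12.0) had regions of 906 to 1927 bases. Insig1, which retains the SREBP transcription factors in the endoplasmic reticulum, had one of 2168 bases with folds of 11.4 and 10.6. Ccdc85c (10.0 and 16.2), Dapk1 (9.78 and 11.1) and Klhl5 (9.68 and 13.6) had narrower regions that also carried H3K4me1. The H3K4me1 peaks at Pakap, Insig1, Gas7, Rgs12 and Ccdc85c were called in all 8 libraries, so these stretches kept a called H3K4me1 peak where H3K27ac was not called. The 5 widest regions were assigned to Dap (3496 bases), Mthfd1 (3449), Hmx1 (3167), Dazap1 (2784) and Wbp1l (2719).

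Most of the WT-only regions were short intervals inside genes and close to intervals that every library shared. Their median width was 513 bases (208 to 3496), against 1981 bases for the intervals called in all 8 libraries and 619 for all intervals. Intervals called in 1 other genotype only were shorter still, with medians of 485.5 (Cpt2 KO), 405.5 (Ppara KO) and 409 bases (DKO). The middle lay in a protein-coding gene body for 76.9% and in or within 1 kb of one for 79.7%, against 66.1% and 71.1% of all intervals. It lay within 1 kb of a protein-coding start for 102 regions (4.71%), against 31.8% of the intervals called in all 8 libraries and 14.1% of all intervals. This share was also low for intervals called only in Cpt2 KO (1.91%), only in Ppara KO (2.76%) and only in DKO (7.68%).

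The distance to the nearest interval called in all 8 libraries had a median of 1526 bases, and 67.8% of the WT-only regions lay within 5 kb of one. The same share was 67.2% for the 290 intervals called only in Ppara KO, but 19.1% for the 1202 only in Cpt2 KO and 18.4% for the 1485 only in DKO. Among the intervals called in all 8 libraries 45.7% had another such interval within 5 kb. WT-only and Ppara KO-only intervals thus lay beside shared acetylation more often than those of the other genotypes. The smallest H3K27ac peak of a library, a value that goes with the fragment length set in peak calling, was 206 and 198 bases for WT, 205 and 210 for Ppara KO, 221 and 220 for Cpt2 KO and 217 and 223 for DKO. The WT and Ppara KO libraries therefore had the smaller values, and the part of this in the calls and in the positions was not tested.

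**Figure D2:**
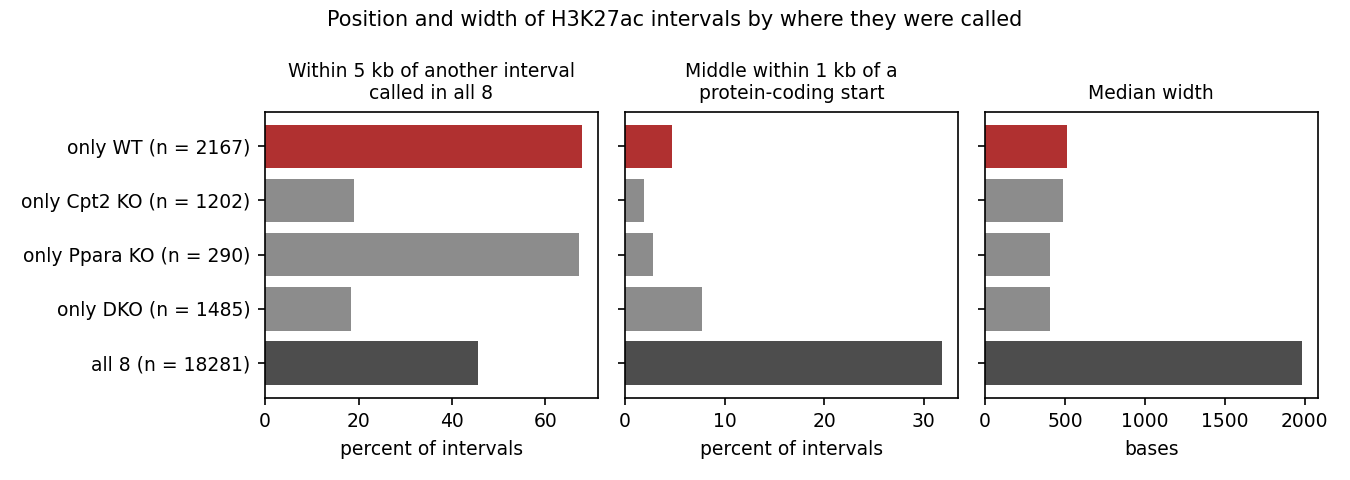
Share of intervals within 5 kb of another interval called in all 8 libraries, share with the middle within 1 kb of a protein-coding start, and median width in bases, for H3K27ac intervals called in both libraries of 1 genotype only or in all 8 libraries. The WT-only bar (red) stands at 67.8% in the left panel, near that of Ppara KO, and at 4.71% in the middle panel.

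Some of the regions stood in runs, which were counted for no other set of intervals. With gaps of at most 1000 bases and no other interval between, 485 regions (22.4%) stood in 220 runs of 2 or more, and 34 runs held 3 or more. The longest run, of 5 regions over 4807 bases (chr4:45444366-45449172), was at Shb, an adaptor protein of receptor tyrosine kinases. Runs of 4 lay at Insig1 (chr5:28043962-28049252), Acly (chr11:100486765-100490775), AI661453, the steroid enzyme gene Hsd3b3, Sh3pxd2a, Pomt1, Irak2, Haao and Msra.

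A region was assigned to the nearest gene body, which can lie far from it. By this rule the regions belonged to 1399 protein-coding genes, or 10.5% of the 13338 genes with any H3K27ac interval, and 463 genes had 2 or more. Ptprf, a receptor tyrosine phosphatase that acts on the insulin receptor, had the most, 9 of its 27 intervals. AI661453 had 8 of 21, the zinc finger gene Rreb1 8 of 77 and Zcchc24 8 of 37. Acly had 7 of 16, Ccdc85c 7 of 19, the ubiquitin ligase gene Hectd2 7 of 18, the nuclear factor gene Nfix 7 of 38 and Tcf7l1 7 of 34. At Ptprf the WT libraries called 20 and 26 intervals, the Cpt2 KO libraries 4 and 6, the Ppara KO libraries 8 and 10, and the DKO libraries 6 and 6. The strongest Ptprf interval called in all 8 gave folds of 21.1 and 26.3 for the WT livers, and 8.22 to 16.1 for the 6 others, so each WT value was above them. The same held at Zcchc24 (36.8 and 43.2 against 20.0 to 28.4) and Hectd2 (16.1 and 21.8 against 5.92 to 11.8), while at AI661453, Rreb1, Nfix and Tcf7l1 the WT values overlapped the others. At Ccdc85c no interval was called in all 8 libraries. These genes were picked by their WT-only H3K27ac calls. How often both WT folds were the highest over all 18281 shared intervals was not counted, so these values are a description.

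The genes of lipid synthesis held the largest share of WT-only regions among the 14 gene lists. In the list of lipogenesis and sterols, 14 of the 22 genes with an interval (63.6%) had at least 1 region. Over all genes with an interval this share was 10.5%, and over the other lists it ran from 8.33% (xenobiotic metabolism) to 47.1% (clock). Of the 274 intervals of the lipogenesis and sterol list, 37 (13.5%) were WT-only, against 3.29% of all intervals. The same list had 4 intervals called only in Cpt2 KO, 1 only in Ppara KO and 2 only in DKO. The WT libraries called 171 and 204 of these 274 intervals (62.4% and 74.5%), and the 6 others 90 to 120 (32.8% to 43.8%), while over all intervals the libraries called 48.8% to 59.0%. The folds of the 37 regions had medians of 5.60 and 5.80 in the WT livers, near those of all WT-only regions. The lists were drawn up with earlier results of these data known, so the order of the lists is a description.

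**Figure D3:**
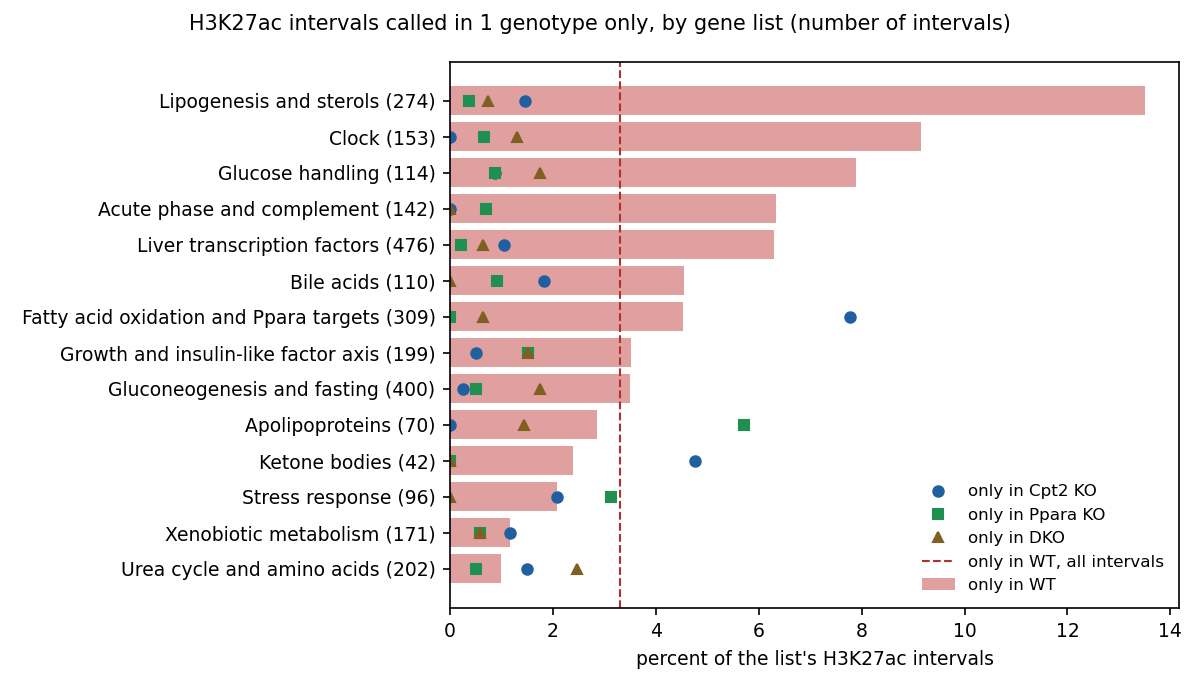
Percent of the H3K27ac intervals of each gene list that were called in both libraries of 1 genotype and no other library. Bars give WT-only, symbols the other genotypes, the dashed line the WT-only share of all intervals (3.29%), and the number of intervals stands in parentheses. Lipogenesis and sterols reaches 13.5% for WT, and fatty acid oxidation is the list with the highest Cpt2 KO symbol, at 7.77%.

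Acly, which makes cytosolic acetyl-CoA from citrate, was the clearest locus. WT replicate 1 called 10 and replicate 2 all 16 of its intervals, whereas the Cpt2 KO libraries called 1 each, the Ppara KO libraries 2 and 3, and the DKO libraries 3 each. The run of 4 regions in the distal part of the gene body had folds from 5.84 to 8.28 in replicate 1 and from 6.45 to 9.56 in replicate 2. At chr11:100525643-100526695, 1831 bases downstream of the start, the folds were 4.77 and 8.69, at chr11:100520651-100521150 they were 4.32 and 6.01, and at chr11:100523169-100523650 they were 5.19 and 3.25. The single interval called in all 8 libraries, at the start of the gene, had folds of 10.9 and 16.3 in WT and of 9.47 to 18.7 in the other 6 libraries. The WT range lay within that of the others at the start, as the map of called peaks at Acly shows for the calls.

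**Figure D4:**
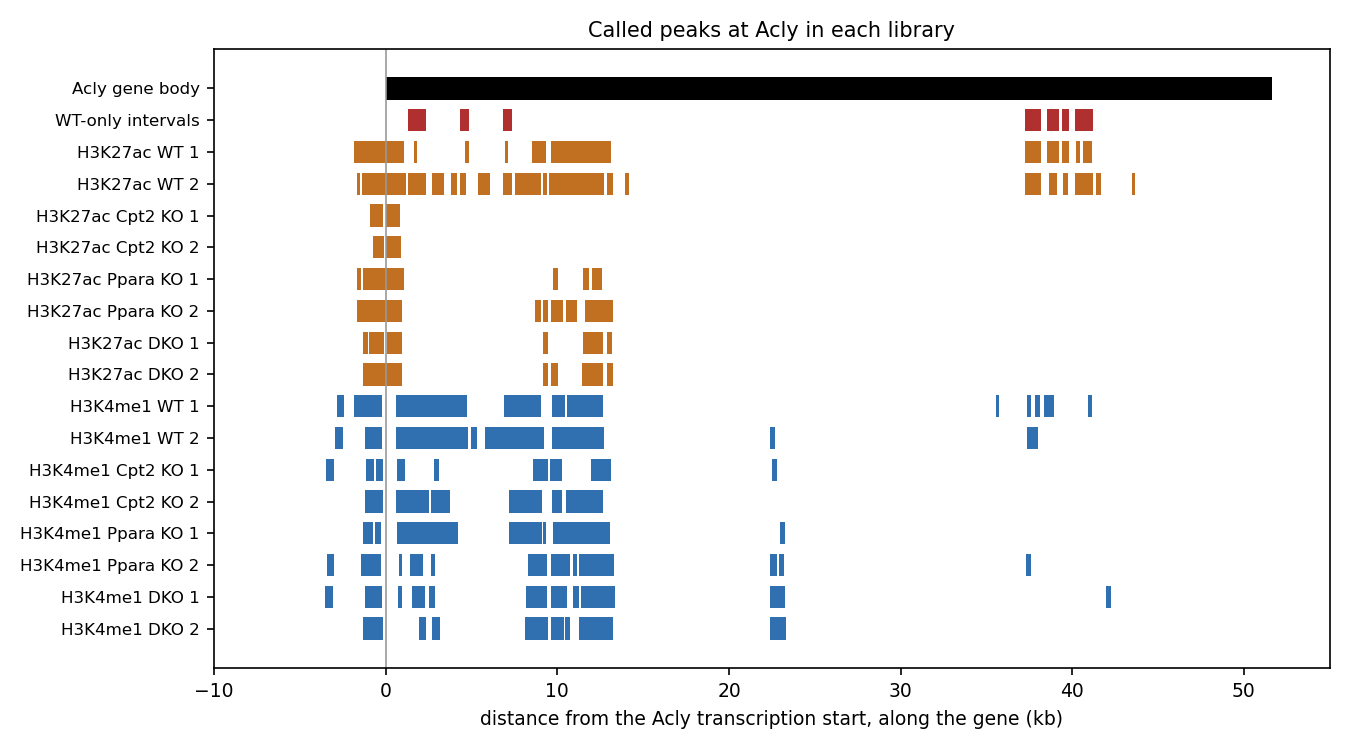
Peaks called at Acly in each H3K27ac (orange) and H3K4me1 (blue) library and the 7 WT-only intervals (red), by distance in kb from the transcription start along the gene. Every library has H3K27ac peaks at the start, and the run of 4 WT-only intervals in the distal gene body has H3K27ac peaks in the WT libraries and in none of the 6 others.

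Srebf1 and Fasn likewise had an interval shared by all libraries and WT-only regions beside it. Srebf1, the transcription factor that activates lipogenic genes, had 3 regions, the strongest at chr11:60202623-60204979 with folds of 9.11 and 12.5. The WT libraries called 7 and 9 of 11 Srebf1 intervals, and each of the 6 others called 2. The strongest Srebf1 interval called in all 8 had folds of 19.7 and 32.4 in WT and of 13.2 to 31.8 in the others. Fasn, the fatty acid synthase gene, had 1 region (4.69 and 5.41), while its shared interval had folds of 20.3 and 32.2 in WT and of 7.75 to 13.7 in the 6 others. At Fasn the shared interval was thus also highest in the WT livers, whereas at Srebf1 the WT values overlapped the others. Here too the share over all shared intervals was not counted. Acacb (4.6 and 5.8), an acetyl-CoA carboxylase gene, and the elongase gene Elovl6 (5.85 and 5.21) had 1 region each, Elovl5 had 2, and Mlxipl, which encodes the carbohydrate-responsive factor ChREBP, had 2. No region was assigned to Acaca, Scd1, Me1, Thrsp or Pnpla3.

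In triglyceride and sterol metabolism, Gpam, which starts glycerolipid synthesis, had 3 regions at 17 to 23 kb from the gene, the widest (chr19:55147500-55149595) with folds of 10.2 and 6.64. Dgat2, which completes triglycerides, had 3, with folds of 7.70 and 6.30 at the strongest. Of the sterol genes, Insig1 had 4 regions in the run named above, Srebf2 had 1 (6.51 and 5.65), and Abca1, the cholesterol exporter, had 4. The strongest Abca1 interval called in all 8 had folds of 26.0 and 41.4 in WT and of 11.5 to 24.7 in the others.

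The clock list followed, with 14 of 153 intervals (9.15%) in 8 genes. Hlf, an output factor of the clock, had 5 regions, 3 of them in a row by its start, with folds of 10.3 and 9.50 at the strongest. Nr1d1 and Per2 had 2 each, and Cry1, Nr1d2, Rora and Tef 1 each. Glucose handling had 9 of 114 (7.89%), with 3 near the glycogen phosphorylase gene Pygl, 3 assigned to Ppp1r3b, a glycogen-targeting phosphatase subunit (1454, 166315 and 167576 bases from the gene), and 1 each near Slc2a2, Slc2a9 and Pfkfb3. Acute phase and complement had 9 of 142 (6.34%), of which 3 were near Saa1, 3 in C4b, 2 in Stat3 and 1 near Orm1.

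The liver transcription factors held 30 of 476 intervals (6.30%) in 13 genes. Bcl6, a transcriptional repressor, was the nearest gene of 3 regions, and the one at chr16:24058690-24060598, 70778 bases from the gene, had the highest fold of all regions in WT replicate 1, 13.75, with 9.28 in replicate 2. Onecut1 had 3 (7.75 and 12.5 at the strongest), Ppard 5, Foxa2 4, the bile acid receptor gene Nr1h4 4, and Hnf4a 1 (6.87 and 5.38).

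Lists of the fasting response stood nearer to the background of 3.29%. Fatty acid oxidation and Ppara targets had 14 of 309 intervals (4.53%), with 1 in Acsl1 and 2 assigned to it from 63746 and 69521 bases away, 2 each near Cpt1a and Slc27a2, and 1 each near Ppara, Acaa1a, Vnn1, Fgf21, Mfsd2a and Creb3l3. The same list had 24 intervals (7.77%) called only in Cpt2 KO. The region inside Ppara (chr15:85756598-85757131) had folds of 7.29 and 6.30, and that near Fgf21 6.50 and 5.93. Bile acid genes had 5 of 110 (4.55%), 2 of them near Cyp7a1, the rate-limiting enzyme of bile acid synthesis. Growth genes had 7 of 199 (3.52%), and gluconeogenesis and fasting 14 of 400 (3.50%), among them G6pc (6.11 and 4) and 2 each in Foxo3, Insr and Lpin1. Foxo1 had 1 inside the gene and 1 assigned to it from 146200 bases away. The remaining lists had shares under 3.29%, each from only 1 or 2 regions. They were apolipoproteins (2 of 70, 2.86%), ketone bodies (1 of 42, 2.38%) and stress response (2 of 96, 2.08%). Xenobiotic metabolism had 2 of 171 (1.17%) and the urea cycle with amino acids 2 of 202 (0.990%).

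H3K4me1, which the rule did not use, was common at the WT-only regions in the WT livers. A peak of both WT H3K4me1 libraries overlapped 1758 of the 2167 regions (81.1%), against 44.0% of all H3K27ac intervals and 61.9% of those called in all 8 libraries. Per library, an H3K4me1 peak lay on 84.6% and 85.7% of the regions for WT, 32.4% and 76.8% for Cpt2 KO, 72.3% and 38.9% for Ppara KO, and 32.1% and 33.0% for DKO. Each of the 8 libraries called H3K4me1 at 47.3% to 52.6% of all intervals. The WT values were the highest, both DKO values were low, and the replicates of Cpt2 KO and of Ppara KO lay far apart. Intervals called only in another genotype likewise had their highest H3K4me1 shares in that genotype. These were 72.5% and 46.8% for Cpt2 KO, 66.9% and 54.5% for Ppara KO, and 26.1% and 32.7% for DKO.

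This split went with a property of the libraries. The 4 H3K4me1 libraries with the high shares (WT, Cpt2 KO replicate 2 and Ppara KO replicate 1) had smallest peaks of 196 to 200 bases and covered 52.5 to 53.5 Mb, and the 4 others had smallest peaks of 210 to 221 bases and covered 38.8 to 46.0 Mb. At 479 regions (22.1%) H3K4me1 was called in exactly those 4 libraries, against 4.11% of all intervals. The part of this property in these shares was not tested, and the fold test below was also run with the smallest width as a covariate. Within the 4 libraries of small width the shares at the regions were 84.6% and 85.7% in WT and 76.8% and 72.3% in the others, and within the 4 of larger width, which hold no WT library, they ran from 32.1% to 38.9%. At the 414 regions with an H3K4me1 peak in every library, the median fold was 9.06 and 9.53 in WT, 8.28 in Cpt2 KO replicate 2, 7.93 in Ppara KO replicate 1 and 6.57 to 6.85 in the 4 others. Over the 9576 intervals called in all 8 libraries of both marks it ran from 8 to 8.47.

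**Figure D5:**
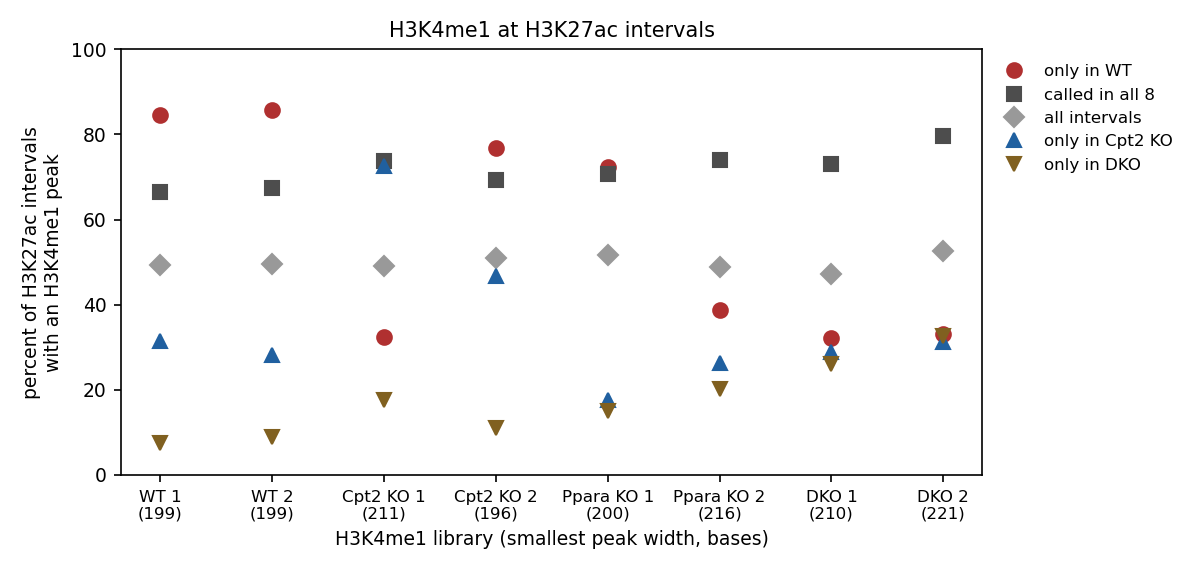
Percent of H3K27ac intervals overlapped by an H3K4me1 peak in each H3K4me1 library, whose smallest peak width in bases is in parentheses. Red circles are the WT-only intervals, at 84.6% and 85.7% in WT and 32.1% to 76.8% in the other libraries, and grey diamonds are all intervals, at 47.3% to 52.6%.

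Only 84 regions (3.88%) had H3K4me1 in both WT livers and in none of the 6 other libraries, against 0.721% of all intervals, and 174 (8.03%) had no H3K4me1 peak in any library. Among the 10 of these 84 with the highest WT H3K4me1 fold were those at Acly (11.4 and 12.3, at chr11:100523169-100523650), the esterase gene Iah1 (10.5 and 11.4), Zfp213 (7.01 and 14.4), Msra (7.30 and 11.4), Ptprf (8.18 and 9.60), the carboxylesterase gene Ces1f (9.02 and 8.06), Wwc1 (8.23 and 8.65), Xxylt1 (12.5 and 4.20) and Ndst1 (5.13 and 10.0). The WT peak at the Acly region belongs to a wider H3K4me1 interval that was called in all 8 libraries outside the region.

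For a test, the H3K4me1 folds of the 19526 H3K4me1 intervals called in all 8 H3K4me1 libraries were compared between genotypes with limma, and the intervals that overlap a WT-only region were read off. Of the 2167 regions, 1030 overlapped a tested interval, at 878 distinct intervals. Several regions can share 1 tested interval, so counts of regions are not counts of intervals. A tested interval can be wider than the region, and its highest fold can come from a peak beside the region. Only 414 of the 2167 regions had an H3K4me1 peak of every library on the region itself. With Benjamini-Hochberg adjustment over all intervals, WT against the mean of the 3 other genotypes gave no call among all intervals (0%, 2962 at an unadjusted p under 0.05). Cpt2 KO against WT gave none either (0%, 1502 unadjusted), nor did Ppara KO against WT (0%, 1648 unadjusted). DKO against WT gave 26 calls (0.133%), 19 higher (0.0973%) and 7 lower (0.0358%), and 1 of the 1030 regions was among the lower. The regions' median log2 difference was 0.26 for WT against the mean of the others, where the median of all intervals was 0.01. It was −0.21 for Cpt2 KO, −0.25 for Ppara KO and −0.31 for DKO against WT. With the smallest peak width of each library as a covariate, the regions' median was 0.16 for WT against the mean of the others. In that fit it was −0.16 for each of Cpt2 KO, Ppara KO and DKO against WT. These counts depended on single libraries: without Cpt2 KO replicate 2, 949 intervals were called in WT against the others, 459 of 20447 higher (2.24%) and 490 lower (2.4%). Of the 1034 regions then tested, 79 were among the higher and 1 among the lower. The DKO calls rose from 26 to 1012 without Cpt2 KO replicate 1, to 973 without Cpt2 KO replicate 2 and to 58 without Ppara KO replicate 2, and fell to 0 without either WT or either DKO library. The 1012 calls were 523 higher (2.55%) and 489 lower (2.38%) of 20516 intervals, and among the 1076 regions then tested 3 were higher and 96 lower.

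The region called lower in DKO lay in Zcchc24 (chr14:25761059-25761623), with H3K27ac folds of 8 and 7.50. Its H3K4me1 interval (chr14:25758856-25761683) gave 13.8 and 16.8 for the WT livers, 8 and 19.4 for the Cpt2 KO livers, 6.25 and 5.60 for the Ppara KO livers, and 3.75 and 4.40 for the DKO livers. The DKO values were the lowest and did not overlap the WT values, and the Cpt2 KO replicates lay on both sides of them. The log2 difference of DKO from WT was −1.91 (SE 0.35, limma adjusted p = 0.0473), and with the smallest peak width of the library as a covariate no interval was called.

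Of the 37 regions of the lipogenesis and sterol list, 29 had H3K4me1 in both WT livers. The WT libraries called H3K4me1 at 32 and 29 of them, the Cpt2 KO libraries at 12 and 25, the Ppara KO libraries at 21 and 13, and the DKO libraries at 10 and 9. As over all WT-only regions, the replicates of Cpt2 KO and of Ppara KO lay far apart and both DKO counts were low. H3K9ac was called at 12 of the 37 in the WT liver and at 9 in the Cpt2 KO liver. Over all WT-only regions the shares were 40.7% and 33.1%, and over all H3K27ac intervals 34.5% and 34.6%. At these lipogenic genes no H3K4me1 interval passed the limma test. Among 13 tested H3K4me1 intervals at 21 of the 37 regions, 10 were higher in WT than in the mean of the others (median log2 0.34). Over all WT-only regions it was 686 of 878 tested intervals (78.1%), so the lipogenic genes were near the share of the regions at large. This share was not counted over all 19526 tested intervals, whose median log2 difference was 0.01. The lowest adjusted p for DKO against WT was 0.0751, at an interval beyond Abca1 (chr4:53218228-53221528). Its fold was 13.4 and 12.9 for the WT livers, 9.60 and 10.4 for Cpt2 KO, 6.36 and 4.95 for Ppara KO, and 5.78 and 5.50 for DKO (log2 −1.22, SE 0.27). Both WT values there were above the 6 others. At Srebf1 (chr11:60203114-60205004) the H3K4me1 fold was 10.7 and 12.1 for the WT livers, 5.17 and 9.03 for Cpt2 KO, 7.83 and 4.63 for Ppara KO, and 4.71 and 4 for DKO (log2 −1.39 for DKO against WT, SE 0.33, limma adjusted p = 0.0851). Both WT values were again the highest, and of the Cpt2 KO and Ppara KO replicates the one with the smaller library width had the higher fold.

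H3K9ac was available for 1 WT and 1 Cpt2 KO liver, so there is no replicate check. An H3K9ac interval overlapped 882 of the WT-only regions (40.7%) in WT and 717 (33.1%) in Cpt2 KO, whereas over all H3K27ac intervals the libraries were alike (34.5% and 34.6%). In 274 regions (12.6%) H3K9ac was called in WT and not in Cpt2 KO, against 5.07% of all intervals. The reverse was found in 109 (5.03%), against 5.14%. H3K9ac was called in both livers at 608 regions and in neither at 1176. At the 608 regions H3K9ac was thus called in both livers although H3K27ac was not called in either Cpt2 KO library.

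Regions near a start and farther away are given apart, since the marks differ by position in all intervals. Of the 102 regions within 1 kb of a protein-coding start, 78.4% had H3K9ac in WT and 78.4% in Cpt2 KO, and 60.8% had H3K4me1 in both WT livers. Of the 2065 others, 38.8% had H3K9ac in WT and 30.8% in Cpt2 KO, and 82.1% had H3K4me1 in both WT livers. The intervals called in all 8 libraries had the same contrast: 97.9% had H3K9ac in WT near a start and 61.2% farther away, and H3K4me1 in both WT livers was called at 40.0% and 72.1%.

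The liver identity of the libraries was checked by marker genes. In H3K4me1, 7 to 9 of the 9 hepatocyte markers had a peak in each library, and none of the 5 Kupffer cell markers had one in any. The values that follow are of H3K27ac. All 9 hepatocyte markers with a position in the gene table had an H3K27ac peak within 1 kb in every library (summed highest folds 150 to 215 per library). Of 5 Kupffer cell markers, 1 had a peak in each WT library (summed folds 6.95 and 5.96), 3 in each Cpt2 KO library (21.4 and 24.0), 1 and 2 in Ppara KO (9.30 and 14.3), and 5 and 4 in DKO (37.7 and 36.8). All 6 markers of sinusoidal endothelium had a peak in every library, with summed folds of 81.2 and 73.5 in WT and 80.3 to 130 in the others. Of 6 stellate cell markers 2 and 3 had a peak in WT (14.7 and 18.8) and 1 to 5 in the others (6.10 to 38.0). Of 6 lymphocyte and neutrophil markers none had one in WT and 1, Ptprc, in each other library (6.50 to 11.6), and of 5 bile duct markers 1, Sox9, had one in each library but those of Cpt2 KO. The fold at Sox9 was 12.5 and 19.7 for WT, 5.81 and 7.25 for Ppara KO, and 6.69 and 9.57 for DKO, so this marker was highest in the WT livers. The part of other cell types in the WT-only calls was not tested, and in whole tissue fewer cells of a type and less acetylation per cell cannot be told apart.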

How the data were processed

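ChIP-seq libraries of H3K27ac and H3K4me1 (8 each) and of H3K9ac (2) were used. Per the submitters' processing notes, BWA, MACS2 2.1.0 and mm10 were used, and the authors deposited 1 narrow peak list per library, so replicates were not pooled. Each peak's fold is a ratio over background made by the authors, and the deposited −log10 p and −log10 q come from the same caller. In the H3K27ac list of Ppara KO replicate 2, the names of peaks hold a different build word. Its peaks shared bases with replicate 1 (Jaccard index 0.723) like the replicates of other genotypes (0.713 to 0.726), and were read as mm10. Consensus intervals hold positions only, and read depth is unknown. Tags at a summit were recovered by solving fold and p together, which held for 100% of the regions' peaks (tolerance 0.01). An interval took the highest overlapping fold of a library, and H3K4me1 folds were log2 transformed, centred on each library's median and tested with limma 3.58.1 (R 4.3.3; 4 genotype means, trended eBayes, threshold adjusted p of 0.05) on intervals called in all 8 libraries. The test was checked on simulated data that held no library effects. That check therefore does not cover the dependence on single libraries. Genes are the nearest of 21900 protein-coding bodies in RefSeq GRCm38.p6, by the middle of the interval.

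The regions and gene lists were chosen with earlier results of these data known. Regions were named by fixed ranks: the 15 with the highest lower WT fold, the 5 widest, those passing a test, the 10 with the highest WT H3K4me1 fold among those with H3K4me1 in WT only, the genes with the most regions (ties kept), and genes of the lists. Some genes that these rules name are not reported here. Among the hepatocyte markers Tf matched no symbol. The labels do not say that replicates are separate animals, so p-values measure only the spread between these samples.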

Additional observations from a re-analysis of the deposited data

How the results depend on the processing

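Of 79 alternative values for 8 results, 54 stayed within 1.5 times the value given and 25 moved further, counting the share in or near a gene, which moved beyond its counting error. The number of WT-only regions was 1227 with −log10 q of at least 10 asked of the WT peaks only, and leaving out 1 library gave 2207 to 5685; the regions with H3K4me1 in both WT livers then numbered 1787 to 3972. The highest values came without WT replicate 1 (5685) or 2 (5483), where the rule asks for fewer libraries. The share in or near a gene was 86.0% within 5 kb.

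H3K4me1 calls moved most. With intervals called in at least 4 libraries and the rest filled in, WT against the others gave 134, Ppara KO 2 and DKO 206. With the smallest width as a covariate Cpt2 KO gave 1 and DKO 0. DKO gave 3 with no centring and 1 with −log10 q of at least 10. Leaving out 1 library gave 0 to 949 for WT against the others (949 without Cpt2 KO replicate 2), 0 to 4 for Cpt2 KO, 0 to 3 for Ppara KO and 0 to 1012 for DKO. DKO gave 0 without either WT or either DKO library, 1012 and 973 without Cpt2 KO replicate 1 and 2, and 58 without Ppara KO replicate 2. Where 1 library of a genotype was left, it was taken to vary like the others. The cause was not tested.

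Replicate numbers did not pair the libraries (correlations of deviations −0.49 to 0.10), and with the replicate number as a block DKO against WT gave 0 calls. Read depth per library is unknown, and the regions' summits rest on a median of 27 tags.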
